A study of Mus musculus with 4 samples.

Results

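The 9 genes described here encode CXC chemokines, small secreted proteins that steer leukocytes: Cxcl1, Cxcl2, Cxcl5, Cxcl9, Cxcl10, Cxcl12, Cxcl14, Cxcl16 and Pf4. They were taken by gene symbol from the 21885 genes listed with the spatial expression matrices and all 9 were found there. Their unique molecular identifiers (UMIs, each standing for 1 captured transcript molecule) were followed across sections of 4 mouse hearts, 3 of them after myocardial infarction (MI), and within each section by how much heart muscle RNA a spot held. Spatial expression was measured with Visium arrays, on which every capture spot reads RNA from a small region that can hold several cells of different types. A level is given as CPM, the gene's UMIs per 1000000 UMIs outside the mitochondrial genes. In such mixed spots, fewer cells of a type and less RNA per cell cannot be told apart.

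All 4 hearts came from Collagen1a1-GFP+ mice of 8 to 12 weeks, which carry a green fluorescent reporter of a collagen gene that fibroblasts express, the control included. The groups were 1 uninjured control heart, 1 heart at 3 days post infarction (dpi) and 2 hearts at 5 dpi, called 5 dpi-F (labelled female) and 5 dpi-M (labelled male), and the infarcts had been made by tying off the left anterior descending coronary artery. Each heart gave 1 fresh-frozen section of 10 µm, and no test between time points was made, so levels across sections are descriptions. After quality filtering, 1146 spots were kept in the control section, 1741 at 3 dpi, 1535 in 5 dpi-F and 1423 in 5 dpi-M. Their UMIs outside the mitochondrial genes ranged from 3742105 in the control to 9540940 in 5 dpi-F, and mitochondrial UMIs made up 40.1% of the control total against 13.3 to 21.4% of the infarcted ones. The 5 dpi sex labels went against the data: 4 Y-linked genes gave 704 UMIs in 5 dpi-F, 1 in 5 dpi-M and 0 in the control and 3 dpi sections. The labels are kept as names only. Because every array has the same printed positions, 129 position barcodes were kept in all 4 sections. A barcode names a place on an array and not a cell. The labelled tissue was borne out by the 12 cardiomyocyte genes used below, which made up a median of 10.2% of a control spot's UMIs outside the mitochondrial genes.

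CXC chemokines act through G protein-coupled receptors on leukocytes and other cells, and they are held on tissue surfaces by glycosaminoglycans. Cxcl1, Cxcl2 and Cxcl5 bind Cxcr2 and draw neutrophils, which enter an infarct first. Cxcl9 and Cxcl10 are induced by interferons and bind Cxcr3 on activated T and NK cells, Cxcl12 is a constitutive ligand of Cxcr4 and of the scavenging receptor Ackr3, and Cxcl16 is made as a membrane-anchored ligand of Cxcr6 that is shed from the cell surface. Cxcl14 is a homeostatic member whose receptor use is less settled, and Pf4 (platelet factor 4, or Cxcl4) is stored in platelet granules and is also expressed by macrophages.

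Of the 9 members, 6 lie on mouse chromosome 5, where in RefSeq's gene order Cxcl5, Ppbp, Pf4, Cxcl3, Cxcl15, Cxcl1 and Cxcl2 follow each other and Cxcl9 stands near Cxcl10. Upstream sequence was at hand from RefSeq (build GRCm38.p6) for 7 members, and not for Cxcl5 and Cxcl16. The 250 bases before each start were searched on both strands for 3 patterns of letters: GGG and TTCC with any 3 bases between, bound by NF-kappaB factors, GAAA and GAAA with any 2 bases between, the interferon-stimulated response element, and TTC and GAA with any 3 bases between, bound by STAT factors. The NF-kappaB letters were found in 3 of the 7 (Cxcl1, Cxcl2 and Cxcl10) and in 4.65% of all 32851 promoters of the table, the interferon element in 2 of 7 (Cxcl10 and Cxcl14) and in 2.98%, and the STAT letters in 1 of 7 (Cxcl14) and in 7.02%. The 3 upstream stretches with NF-kappaB letters are shown because these genes had at most 5 UMIs in the control section, and capitals mark the pattern letters. They are chr5:90890995-90891244 on the plus strand (Cxcl1, with pattern stretches starting 89 and 71 bases before the start), chr5:90903649-90903898 on the plus strand (Cxcl2, at 97 and 78 bases) and chr5:92348890-92349139 on the minus strand (Cxcl10, with the interferon element at 213 bases and NF-kappaB letters at 159 and 104 bases). Overlapping matches of the NF-kappaB letters on both strands are drawn as 1 stretch in Cxcl1 and Cxcl2.
Cxcl1: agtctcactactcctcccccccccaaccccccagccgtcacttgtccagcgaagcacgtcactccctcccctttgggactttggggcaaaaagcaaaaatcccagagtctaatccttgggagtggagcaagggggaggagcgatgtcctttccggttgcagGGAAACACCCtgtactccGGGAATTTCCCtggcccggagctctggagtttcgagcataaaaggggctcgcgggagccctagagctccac
Cxcl2: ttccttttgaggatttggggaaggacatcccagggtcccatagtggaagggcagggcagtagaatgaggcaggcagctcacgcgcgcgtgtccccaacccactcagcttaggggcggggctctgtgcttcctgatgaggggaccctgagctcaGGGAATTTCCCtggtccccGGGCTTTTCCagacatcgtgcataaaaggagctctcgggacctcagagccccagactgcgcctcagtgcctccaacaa
Cxcl10: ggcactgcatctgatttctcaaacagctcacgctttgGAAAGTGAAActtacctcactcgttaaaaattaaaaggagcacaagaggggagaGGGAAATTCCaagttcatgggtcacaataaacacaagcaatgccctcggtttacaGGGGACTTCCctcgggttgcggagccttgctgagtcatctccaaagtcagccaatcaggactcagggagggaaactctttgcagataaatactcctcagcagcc
A match of letters describes the sequence and is no evidence that a factor was bound in these hearts.

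Across whole sections, values are given in the order control, 3 dpi, 5 dpi-F and 5 dpi-M, with exact Poisson 95% intervals that cover counting error only. Among the neutrophil attractants, Cxcl5 had 0, 242, 156 and 153 UMIs, that is 0, 28.9 (25.4 to 32.8), 16.4 (13.9 to 19.1) and 18.4 (15.6 to 21.6) CPM. Against a floor of 3 UMIs in the control section (0.802 CPM), the 3 dpi section was at least 36.0-fold higher in Cxcl5, and the 5 dpi sections were at least 20.4-fold and at least 23.0-fold higher. That floor leaves out the counting error of the ratio, whose exact 95% lower limits were 29.1, 16.4 and 18.4. Cxcl5 was thus seen in the infarcted hearts alone at this depth, and was most abundant at 3 dpi. Cxcl1 had 3, 45, 44 and 30 UMIs, or 0.802 (0.165 to 2.34), 5.37 (3.92 to 7.19), 4.61 (3.35 to 6.19) and 3.61 (2.43 to 5.15) CPM. The ratio of Cxcl1 over the control was 6.70 (2.15 to 33.7) at 3 dpi, 5.75 (1.84 to 29.0) in 5 dpi-F and 4.50 (1.40 to 23.0) in 5 dpi-M. Cxcl2 was the sparsest member with 1, 16, 22 and 11 UMIs, or 0.267 (0.00677 to 1.49), 1.91 (1.09 to 3.10), 2.31 (1.45 to 3.49) and 1.32 (0.660 to 2.37) CPM. The control interval of Cxcl2 overlapped those of all infarcted sections, and the 3 infarcted sections overlapped each other for both Cxcl1 and Cxcl2.

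The interferon-induced pair differed in its control level. Cxcl10 had 5, 571, 312 and 198 UMIs, that is 1.34 (0.434 to 3.12), 68.2 (62.7 to 74.0), 32.7 (29.2 to 36.5) and 23.8 (20.6 to 27.4) CPM. It was 51.0-fold (21.7 to 158) above the control at 3 dpi and 24.5-fold (10.4 to 75.9) and 17.8-fold (7.51 to 55.5) above it in the 5 dpi sections. None of the 4 Cxcl10 intervals overlapped, and the 3 dpi section was highest. Cxcl9 had 33, 151, 66 and 66 UMIs, or 8.82 (6.07 to 12.4), 18.0 (15.3 to 21.1), 6.92 (5.35 to 8.80) and 7.94 (6.14 to 10.1) CPM. Only the 3 dpi section stood above the others for Cxcl9, at 2.04-fold (1.40 to 3.08) over the control, and the 5 dpi sections did not differ from the control beyond counting error.

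**Figure D1:**
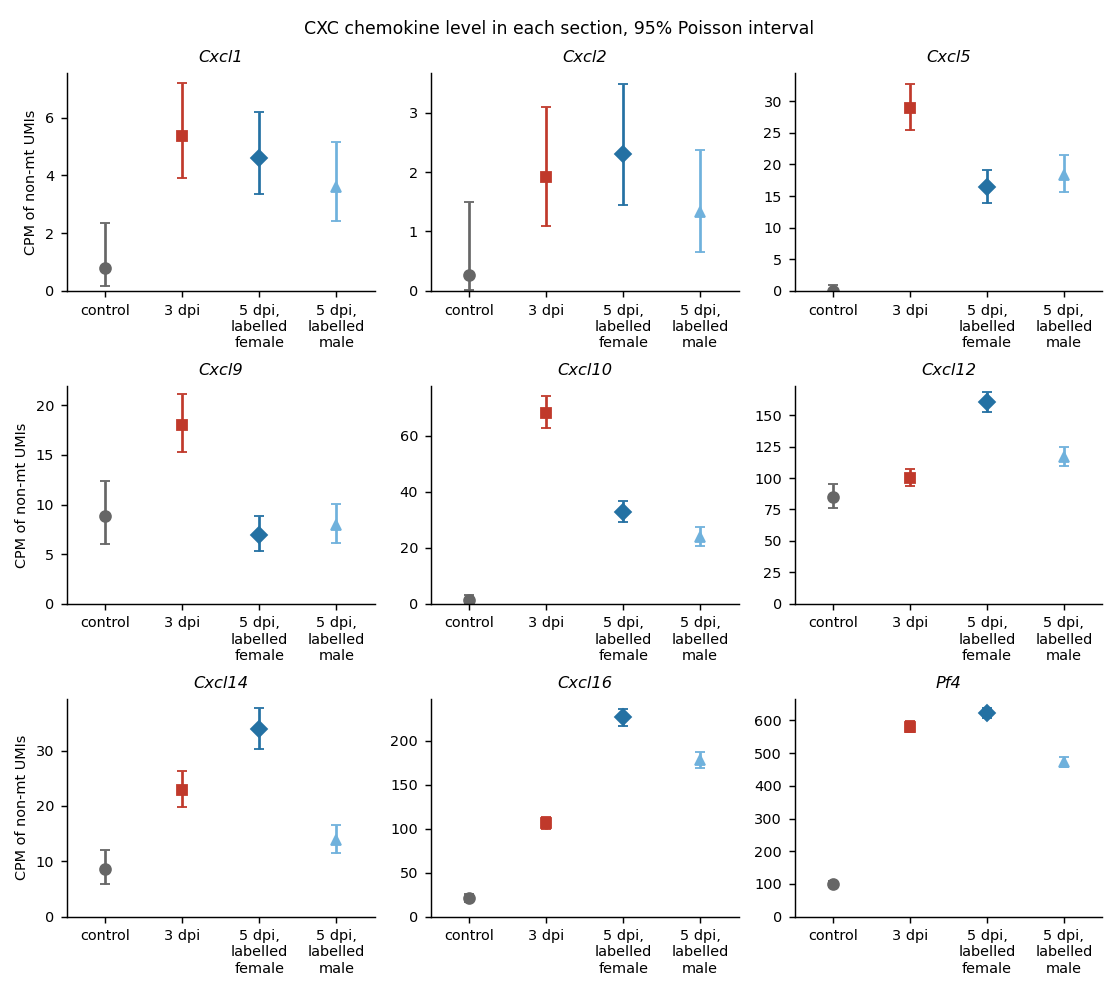
Level of each CXC chemokine in the 4 heart sections, in CPM of UMIs outside the mitochondrial genes on axes that start at 0, with 95% Poisson intervals as bars and 1 section per point. Cxcl5 was at 0 in the control section, Cxcl9 and Cxcl10 were highest at 3 dpi (18.0 and 68.2 CPM), and Cxcl12, Cxcl14 and Cxcl16 were highest in 5 dpi-F (160, 33.9 and 226 CPM).

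The remaining members were well above 0 in the control section. Cxcl16 stood at 20.8 (16.5 to 26.0), 106 (99.1 to 113), 226 (217 to 236) and 178 (169 to 187) CPM from 78, 887, 2161 and 1476 UMIs, and was 5.08-fold, 10.9-fold and 8.52-fold above the control. Pf4 had the most UMIs of the 9 members (370, 4861, 5938 and 3928), at 98.9 (89.1 to 109), 580 (564 to 597), 622 (607 to 638) and 472 (458 to 487) CPM. Pf4 was therefore 5.87-fold, 6.29-fold and 4.78-fold above the control, with the 3 dpi section between the 5 dpi ones, whereas Cxcl16 was higher in both 5 dpi sections than at 3 dpi. Cxcl12 stood at 85.2 (76.1 to 95.1), 100.2 (93.5 to 107), 160 (152 to 168) and 117 (110 to 124) CPM, or 1.18-fold, 1.88-fold and 1.37-fold over the control, the smallest range of any member. Cxcl14 stood at 8.55 (5.85 to 12.1), 22.9 (19.8 to 26.4), 33.9 (30.3 to 37.8) and 13.8 (11.4 to 16.6) CPM. The 2 hearts at 5 dpi differed from each other by more than counting error in Cxcl10, Cxcl12, Cxcl14, Cxcl16 and Pf4, and for Cxcl14 and Pf4 they lay on both sides of the 3 dpi value.

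Counted by size, 5 of the 9 members (Cxcl1, Cxcl5, Cxcl10, Cxcl16 and Pf4) were at least 2-fold above the control in each infarcted section, against 25.3% of the 12101 genes with at least 20 UMIs in 1 section. In these counts a value under 3 UMIs was raised to 3 UMIs for every gene. Cxcl2 was left out of the 5 by that floor alone, since against its single control UMI its ratios were 7.15 (1.11 to 300), 8.63 (1.39 to 356) and 4.95 (0.720 to 213). No member was at least 2-fold below the control in each infarcted section, against 4.43% of genes. Cxcl1, Cxcl2, Cxcl5 and Cxcl10 reached 20 UMIs in infarcted sections alone, so their place in the counts against the control is a description. Cxcl9 and Cxcl10 were at least 2-fold higher at 3 dpi than in both 5 dpi sections (2.61-fold and 2.27-fold for Cxcl9, 2.09-fold and 2.86-fold for Cxcl10), against 0.521% of genes, and no member was at least 2-fold lower there (1.51% of genes). With 1 heart at 3 dpi, these ratios describe these hearts and have no replicate check. With CPM over all UMIs, mitochondrial ones included, the share of all genes at least 2-fold above the control in each infarcted section was 41.8%, and 7 members instead of 5 were.

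To ask where in the hearts the chemokines lay, each spot was placed by its share of 12 cardiomyocyte genes in its UMIs, set against the section's own 90th percentile of this share. Spots under 0.25 of that percentile are called muscle-poor, those from 0.25 to 0.5 mixed muscle-low, from 0.5 to 0.75 mixed muscle-high and above that muscle-rich. Muscle-poor spots numbered 516 at 3 dpi, 952 in 5 dpi-F and 591 in 5 dpi-M, and muscle-rich spots 497, 286 and 509. In the control section 1099 of the spots were muscle-rich, 46 mixed muscle-high and 1 mixed muscle-low. Muscle-poor spots were also deeper than muscle-rich ones, with a median of 6106 against 3166 UMIs outside the mitochondrial genes at 3 dpi, 6940.5 against 3809 in 5 dpi-F and 7024 against 4234 in 5 dpi-M. The classes were compared over the 3 infarcted hearts with edgeR's quasi-likelihood test on UMIs summed per heart and class, with the heart as a block and Benjamini-Hochberg adjustment over 10521 genes. In that comparison 30.8% of all genes were higher and 27.1% lower in muscle-poor spots at an adjusted p under 0.05.

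**Figure D2:**
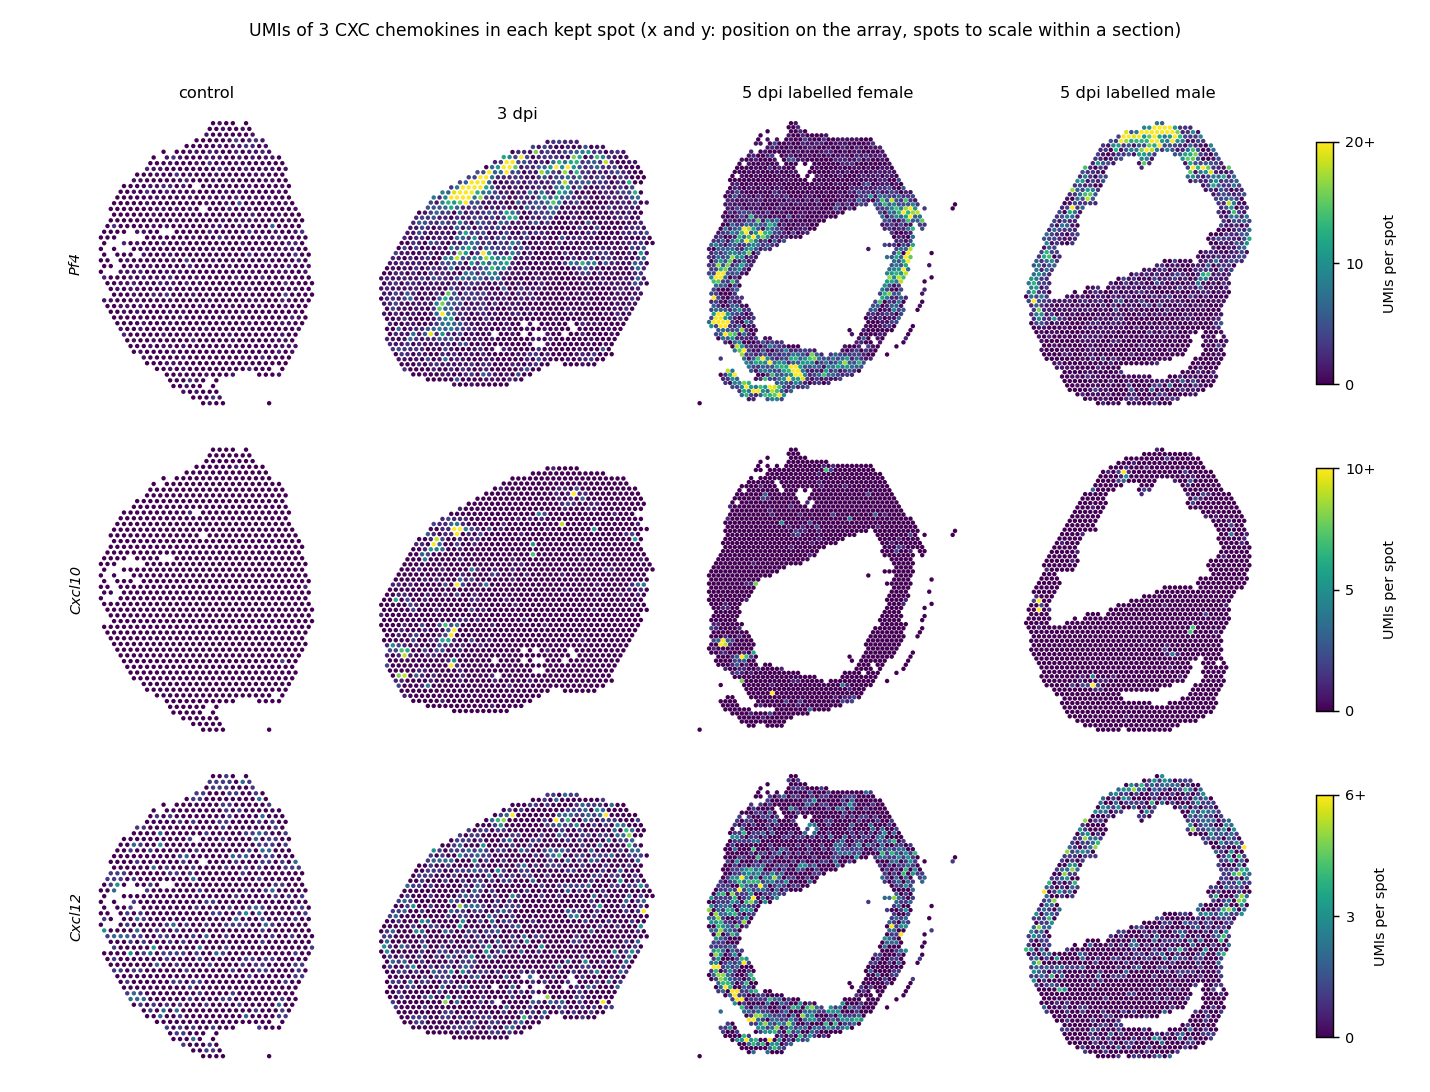
Maps of the kept spots of the 4 sections at their array positions (columns, with the 5 dpi sections named by their sex labels), coloured by UMIs per spot of Pf4, Cxcl10 and Cxcl12 (rows), 1 point per spot, with colour scales that end at the upper values printed beside them. Pf4 formed broad patches in the 3 infarcted sections, Cxcl10 stood out in a few spots (the richest held 50, 57 and 28 UMIs), and Cxcl12 was spread over all 4 sections.

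Of the 9 members, 7 passed the filter on low counts and Cxcl1 and Cxcl2 did not. Cxcl5 passed it through the muscle-poor sums, 3 of which and no muscle-rich sum were over its limit of 6.17 CPM, so it had to differ and is given as a description. Of the other 6, Pf4, Cxcl16, Cxcl10 and Cxcl14 were higher in muscle-poor than in muscle-rich spots and none was lower. The log2 fold changes were 3.92 for Cxcl5, 2.11 for Pf4, 1.97 for Cxcl16, 1.03 for Cxcl10 and 0.86 for Cxcl14, and the median over the 7, Cxcl5 included, was 1.03, against 0.09 over all genes tested. The scaling between the sums (TMM) lowered every such log2 value by 0.43 on average relative to the plain ratio of CPM, so both are given. With that scaling and the cardiomyocyte genes both left out, the direction of no member in this comparison changed, Cxcl12 joined the called members (log2 0.66, edgeR adjusted p = 0.00601), and 4650 of 10400 genes were higher and 2081 lower, against 3239 and 2855 of 10521 with both kept. By CPM alone, muscle-poor exceeded muscle-rich spots in all 3 hearts for 8 of the 9 members, or 7 of the 8 with at least 20 UMIs, against 59.0% of 11475 genes. Cxcl1 and Cxcl5 reached 20 UMIs in muscle-poor sums alone, so their place in that count is a description.

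The neutrophil attractants were gathered in the muscle-poor spots. Cxcl5 stood at 59.1 CPM there against 1.70 in muscle-rich spots at 3 dpi (190 and 3 UMIs), 22.8 against 1.75 in 5 dpi-F (152 and 2 UMIs) and 33.7 against 2.19 in 5 dpi-M (142 and 5 UMIs). All 3 muscle-poor values exceeded all 3 muscle-rich values, with ratios of 34.7 (11.7 to 170), 13.01 (3.54 to 108) and 15.4 (6.46 to 48.2). The fitted change was log2 3.92 (SE 0.37). Between the extremes, Cxcl5 at 3 dpi was intermediate, at 18.3 CPM in mixed muscle-low and 9.44 CPM in mixed muscle-high spots, while in the 5 dpi sections it was 1.03 and 4.46 CPM already in the mixed muscle-low class. The muscle-low class accordingly exceeded muscle-rich spots in the fit (log2 1.91, SE 0.52, edgeR adjusted p = 0.00865), but not without the 3 dpi heart (log2 0.12, adjusted p = 0.95) or with DESeq2 (adjusted p = 0.0571). Between muscle-poor and muscle-low spots the fitted change was log2 2.01 (SE 0.29), again as a description.

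Cxcl1 gave 38, 39 and 25 UMIs in the muscle-poor spots of the 3 dpi section, 5 dpi-F and 5 dpi-M, and 2, 1 and 1 in their muscle-rich spots. The CPM ratios were 10.4 (2.69 to 88.9), 6.68 (1.13 to 270) and 13.6 (2.22 to 557). Cxcl2 gave 14, 18 and 10 UMIs in muscle-poor and 0, 1 and 1 in muscle-rich spots. All 3 attractants were thus more abundant in the muscle-poor spots of each heart, but the intervals for Cxcl2 reached below 1 in both 5 dpi sections (3.08, 0.486 to 128, and 5.43, 0.772 to 236). With no filter on low counts the fit called both, Cxcl1 at log2 2.79 and Cxcl2 at log2 2.35 (edgeR adjusted p = 0.0329 for Cxcl2).

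Cxcl10 had no single pattern over the classes. At 3 dpi it went from 101 CPM in muscle-poor spots through 69.4 and 54.6 to 17.6 CPM in muscle-rich spots. In 5 dpi-F it was 37.0 CPM in muscle-poor and 36.8 CPM in muscle-rich spots, with 17.5 and 7.99 CPM between, and in 5 dpi-M it was 33.5 CPM in muscle-poor, 26.2 CPM in mixed muscle-high and 9.62 CPM in muscle-rich spots. The muscle-rich spots of 5 dpi-F therefore had within counting error the Cxcl10 level of its muscle-poor spots (ratio 1.01, 0.723 to 1.43), against 5.75-fold (3.97 to 8.61) at 3 dpi and 3.48-fold (2.21 to 5.73) in 5 dpi-M. The overall change was log2 1.03 (SE 0.36, edgeR adjusted p = 0.0189). It was lost without the 3 dpi heart (log2 0.41, adjusted p = 0.316) and without 5 dpi-M (log2 0.93, adjusted p = 0.109), and with DESeq2 in place of edgeR (log2 0.71, adjusted p = 0.439).

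Cxcl10 was also above the control where muscle remained. In muscle-rich spots it was 1.11 CPM in the control section against 17.6, 36.8 and 9.62 CPM in the infarcted ones, and it was the 1 member of the 6 with at least 20 UMIs there that was at least 2-fold above the control in each infarcted section (3.66% of 9128 genes), while none of the 6 was at least 2-fold below it in each (0.372% of genes). Cxcl10 reached 20 UMIs in the muscle-rich spots of infarcted sections alone, so its place in that count is a description. Muscle-rich Cxcl9 was 8.85 CPM in the control and 7.95, 7.00 and 10.1 CPM in the infarcted sections, a range narrower than the counting error. Within muscle-poor spots, Cxcl9 and Cxcl10 were again the members at least 2-fold higher at 3 dpi than in both 5 dpi sections, 2 of the 8 with enough UMIs against 1.56% of 11328 genes. No member was at least 2-fold lower there at 3 dpi, against 2.24% of genes. Cxcl9 itself was 21.8 against 7.95 CPM between muscle-poor and muscle-rich spots at 3 dpi, 8.24 against 7.00 in 5 dpi-F and 8.08 against 10.1 in 5 dpi-M. The groups overlapped, and the change did not pass the test (log2 0.10, SE 0.38, edgeR adjusted p = 0.836).

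**Figure D3:**
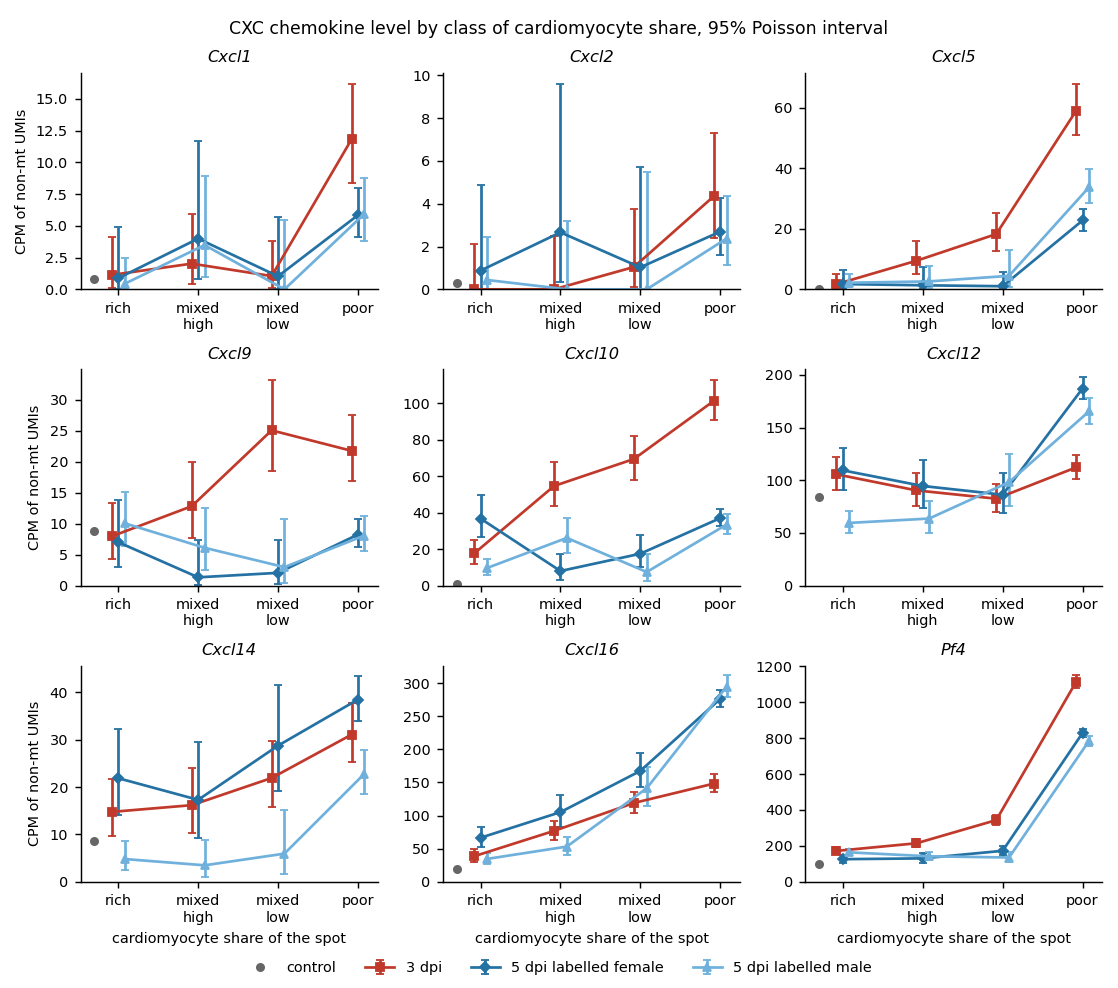
Level of each member in CPM over the 4 classes of cardiomyocyte share, from muscle-rich on the left to muscle-poor on the right, with 1 line per infarcted section, 95% Poisson intervals as bars and a grey point for the muscle-rich spots of the control. Pf4 and Cxcl5 were highest in the muscle-poor class of every infarcted section (Pf4 1114, 828 and 784 CPM), Cxcl16 was lower at each step toward muscle, and Cxcl9 had no shared order.

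Cxcl16 and Pf4 both rose in muscle-poor spots but took different paths over the classes. Cxcl16 was 148, 119, 76.9 and 38.6 CPM from muscle-poor to muscle-rich spots at 3 dpi, 276, 167, 105.2 and 66.5 CPM in 5 dpi-F and 295, 141, 53.2 and 34.6 CPM in 5 dpi-M. Every step down was in the same direction in the 3 hearts, and the mixed muscle-low class already exceeded muscle-rich spots (log2 1.40, SE 0.21, edgeR adjusted p = 3.76e-05). The step from muscle-low to muscle-poor was smaller (log2 0.58, SE 0.18, edgeR adjusted p = 0.0247) and was lost when either 5 dpi heart was left out (adjusted p = 0.183 without 5 dpi-F and 0.108 without 5 dpi-M) and with DESeq2 (adjusted p = 0.0782). From muscle-rich to muscle-poor, Cxcl16 rose by log2 1.97 (SE 0.20, edgeR adjusted p = 4.45e-08), with CPM ratios of 3.84, 4.15 and 8.53.

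Pf4 was 1114, 344, 215 and 172 CPM over the same classes at 3 dpi, 828, 173, 131 and 126 CPM in 5 dpi-F and 784, 135, 142 and 164 CPM in 5 dpi-M. Its rise lay between the muscle-low and muscle-poor classes (log2 1.95, SE 0.17, edgeR adjusted p = 3.52e-08). From muscle-rich to muscle-low spots the change was log2 0.16 (SE 0.17, edgeR adjusted p = 0.525), and it was past the threshold without 5 dpi-M (log2 0.50, adjusted p = 0.04). Over the whole span the CPM ratios were 6.47, 6.57 and 4.78 and the fitted change was log2 2.11 (SE 0.17, edgeR adjusted p = 1.18e-09).

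Because Pf4 is best known from platelets, the other platelet and megakaryocyte genes were set beside it. A list of 8 such genes (among them Itga2b, Gp9 and Treml1) summed to 11.8, 9.89 and 9.03 CPM in the muscle-poor spots of the 3 hearts and to 6.25, 7.00 and 8.31 CPM in their muscle-rich spots, and 1 of its genes had enough UMIs to be tested and did not pass. Ppbp, another platelet granule gene, had 152, 46 and 27 UMIs in muscle-poor against 0, 0 and 5 in muscle-rich spots, and its part in the Pf4 values was not tested beyond the following. Leaving out every spot with a UMI of that list or of Ppbp removed 96, 95 and 58 muscle-poor spots. In the remaining spots Pf4 was 780, 801 and 701 CPM in muscle-poor and 174, 127 and 161 CPM in muscle-rich spots. In the fit without those spots Pf4 was at log2 1.86 (SE 0.19, edgeR adjusted p = 5.91e-08), with 2998 of 10450 genes higher. These genes are sparse, so a spot without their UMIs is not shown to be free of platelets, and this alternative was chosen after seeing the data.

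Cxcl12 was 112 against 106 CPM between muscle-poor and muscle-rich spots at 3 dpi (ratio 1.06, 0.887 to 1.27), 187 against 109 in 5 dpi-F (1.71, 1.42 to 2.07) and 165 against 59.5 in 5 dpi-M (2.78, 2.31 to 3.36). The 3 dpi heart thus showed nearly no difference and the 5 dpi hearts did. Over the 3 hearts the change did not pass (log2 0.36, SE 0.19, edgeR adjusted p = 0.106), while without the 3 dpi heart it did (log2 0.72, adjusted p = 0.00106). Cxcl12 rose from muscle-low to muscle-poor spots (log2 0.66, SE 0.20, edgeR adjusted p = 0.0167), a call lost without 5 dpi-F (log2 0.50, adjusted p = 0.28) and with DESeq2 (adjusted p = 0.0519). Cxcl14 was 31.1 against 14.8, 38.5 against 21.9 and 22.8 against 4.81 CPM, a rise of log2 0.86 (SE 0.25, edgeR adjusted p = 0.00523). For Cxcl14 the muscle-poor values exceeded the muscle-rich ones in all hearts without overlap.

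The muscle-low spots separated the members: of the 7 tested, Cxcl16 and Cxcl5 were higher than in muscle-rich spots (14.8% of all genes were), and from muscle-low to muscle-poor spots Pf4, Cxcl12 and Cxcl16 were higher of the 6 besides Cxcl5 (11.5% of all genes). Cxcl10 was at log2 0.40 and 0.63 in these steps (edgeR adjusted p = 0.53 and 0.201). It passed in the first without 5 dpi-F (log2 1.15, adjusted p = 0.0379), and in the second without the 3 dpi heart (log2 1.28, adjusted p = 0.0357).

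The infarct border gave a second axis: connected patches of at least 10 spots under 0.5 of the percentile were taken as the infarct, and each spot was placed by its number of hexagonal steps from the patch edge. Pf4 was highest more than 4 steps inside, at 1354 CPM at 3 dpi, 891 CPM in 5 dpi-F and 809 CPM in 5 dpi-M, stood at 464, 223 and 126 CPM within the outermost 2 steps inside, and was 178, 137 and 167 CPM more than 4 steps outside. Cxcl16 kept its level nearer to the edge, with 140, 145 and 130 CPM from the core to the outermost steps at 3 dpi, 273, 278 and 203 CPM in 5 dpi-F and 288, 300.2 and 162 CPM in 5 dpi-M. Over 4 steps outside it was 38.4, 54.9 and 34.6 CPM.

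Cxcl5 was highest off the core in 1 heart: at 3 dpi it was 44.2 CPM in the core, 88.4 CPM at 3 to 4 steps inside and 20.6 CPM at 1 to 2 steps. In 5 dpi-F the core and the next ring were alike (23.8, 23.6 and 0.88 CPM), and in 5 dpi-M the core was highest (35.3, 8.1 and 5.7 CPM). Cxcl9 was 9.3, 27.5 and 33.6 CPM from the core outward at 3 dpi, and in both 5 dpi sections its highest value was at 3 to 4 steps inside (22.5 and 16.2 CPM against 6.2 and 7.4 CPM in the core). The Cxcl9 core was thus below the ring at 3 to 4 steps in all 3 hearts, although these values rest on few UMIs. Comparing only the core with spots more than 4 steps outside, 8 of 9 members were higher in the core in each heart, or 7 of the 8 with enough UMIs, against 58.0% of 11191 genes. Cxcl1 and Cxcl5 had enough UMIs through the core alone, so their place in that count is a description. Cxcl9 was the exception, with 7.4 against 8.9 CPM in 5 dpi-M.

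**Figure D4:**
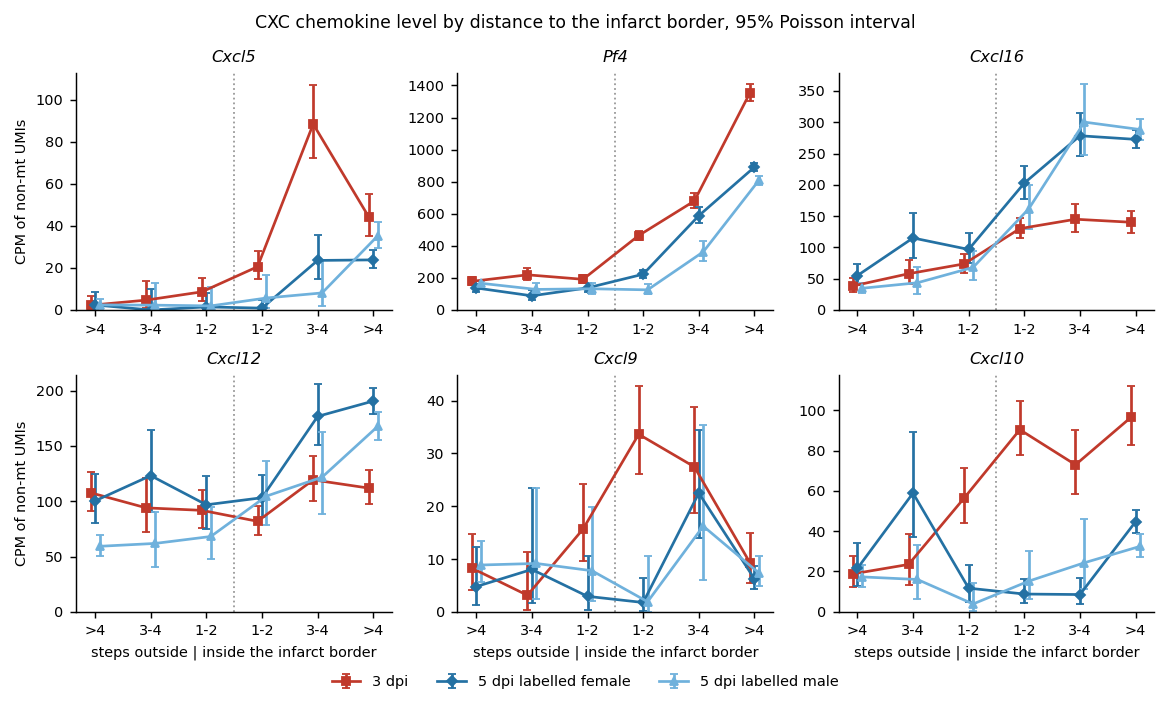
Level of the members in CPM by distance from the infarct border in hexagonal array steps, from outside on the left to the core on the right, for 6 members, with 1 line per infarcted section and 95% Poisson intervals as bars. Pf4 was lower toward the edge than in the core (464 against 1354 CPM at 3 dpi), Cxcl16 was no lower at 3 to 4 steps inside than in the core, and Cxcl9 at 3 dpi was highest at the edge (33.6 CPM).

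The members differed in how evenly their UMIs were spread over spots. The 10 spots with most Cxcl10 held 28.9% of its UMIs at 3 dpi, 48.7% in 5 dpi-F and 53.5% in 5 dpi-M. Since this share grows as UMIs get fewer, it is read only between members with like totals. In 5 dpi-F the 10 top spots of Cxcl14, with 323 UMIs against 312 for Cxcl10, held 17.6%, and in 5 dpi-M those of Cxcl5, with 153 UMIs against 198, held 28.1%. The single richest spots held 50, 57 and 28 Cxcl10 UMIs, against 35, 16 and 10 in all 6 neighbours together, and 0 Cxcl9 UMIs. Cxcl10 was therefore concentrated in a few spots, all 3 of the richest muscle-poor. The richest Pf4 spots held 121, 49 and 78 UMIs with 212, 142 and 210 in their 6 neighbours, no UMI of the 8 platelet genes, 8, 0 and 1 UMIs of Ppbp, and 323, 224 and 246 UMIs of 10 recruited-macrophage genes.

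Inside the infarct (spots under 0.5 of the percentile), members were set against cell type marker lists by comparing the tercile of spots richest in a list with the poorest tercile, 301, 367 and 231 spots a side in the 3 hearts. The recruited-macrophage list (Spp1, Gpnmb, Ly6c2 and others) marks monocyte-derived cells that enter after injury. Pf4 was 1524 against 316 CPM between its richest and poorest spots at 3 dpi, 1228 against 277 in 5 dpi-F and 1289 against 250 in 5 dpi-M. Rich and poor spots did not overlap, and the rise of Pf4 was log2 2.15 (SE 0.10, edgeR adjusted p = 2.29e-06). Cxcl10 was 116 against 81.5, 65.4 against 12.9 and 54.9 against 11.8 CPM (log2 1.25, SE 0.32, edgeR adjusted p = 0.0134), and Cxcl16 was 164 against 110, 316 against 204 and 360 against 182 CPM (log2 0.63, SE 0.12, edgeR adjusted p = 0.00278). Cxcl12 (log2 0.56) and Cxcl5 (log2 1.08) rose too, so that 5 members were higher of the 7 tested, against 13.7% of 10315 genes.

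Spots poor in recruited macrophages were also those with more muscle: all 12 cardiomyocyte genes were lower on the rich side, by a median of log2 -3.32. All 4 neutrophil genes tested (median log2 1.38, with Mmp8 past the count filter through the rich sums) and 3 of the 6 resident-macrophage genes tested were higher there. The part of these in the chemokine results was not tested. Within muscle-poor spots alone Pf4 (log2 1.85), Cxcl10 (log2 1.16), Cxcl16 (log2 0.58) and Cxcl12 (log2 0.34) were higher, 4 of 8 members tested against 1093 of 9752 genes, and Cxcl5 did not pass (log2 0.29, edgeR adjusted p = 0.445). Cxcl9 showed opposite directions at the 2 times, with 20.9 against 26.6 CPM at 3 dpi and 7.31 against 1.90 and 9.92 against 3.28 CPM at 5 dpi, and a log2 change of 1.70 without the 3 dpi heart, where it passed the count filter through the rich sums and is given as a description.

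Resident macrophages, marked by Lyve1, Folr2, Timd4 and others, gave a smaller set. Pf4 was 1301 against 502 CPM at 3 dpi, 982 against 549 in 5 dpi-F and 975 against 497 in 5 dpi-M (log2 1.05, SE 0.07, edgeR adjusted p = 3.36e-16). Cxcl12 rose by log2 0.48 (SE 0.09, edgeR adjusted p = 1.33e-04), from 86.8, 167 and 114 CPM in the poor to 119, 195 and 207 CPM in the rich spots. Cxcl10 passed narrowly (log2 0.48, SE 0.16, edgeR adjusted p = 0.0483) on the 3 dpi heart, where it was 114 against 57.1 CPM, and was level in the 5 dpi hearts (30.1 against 30.3 and 17.7 against 19.3 CPM). Without the 3 dpi heart its log2 change was -0.03. The 3 called members of 8 tested compare with 5.14% of 10273 genes, and 8 of the 10 recruited-macrophage genes were higher in the same spots, with a median over the list of log2 0.54. All 12 cardiomyocyte genes were lower (median log2 -0.69) and 3 of the 4 neutrophil genes tested were higher there, and the part of these lists was not tested.

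Neutrophil genes (S100a8, S100a9, Retnlg, Csf3r and others) were too sparse for terciles, so spots with at least 1 UMI of the list (423, 585 and 357) were set against infarct spots with none (482, 517 and 337). Cxcl5 was 65.2 against 20.1 CPM at 3 dpi, 28.3 against 7.75 in 5 dpi-F and 44.5 against 11.4 in 5 dpi-M, a rise of log2 1.74 (SE 0.15, edgeR adjusted p = 2.66e-11). This neutrophil attractant was thus higher in neutrophil-positive spots of each heart, also within muscle-poor spots alone (log2 1.59). Cxcl1 had 29 against 11, 33 against 7 and 23 against 2 UMIs, or 10.7 against 4.52, 7.25 against 2.26 and 8.52 against 0.916 CPM. It passed the count filter here and not in the class comparison, through the spots where it is high, so its values are given as a description. Cxcl2 did not pass, and had 10 against 6, 17 against 2 and 8 against 2 UMIs.

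Cxcl16 was level between the same spots, at 140 against 135, 262 against 262 and 276 against 270 CPM (log2 -0.03, SE 0.07, edgeR adjusted p = 0.837). Pf4 (log2 0.96), Cxcl14 (log2 0.62), Cxcl10 (log2 0.48) and Cxcl12 (log2 0.26) were higher, which with Cxcl5 makes 5 of the 7 tested besides Cxcl1, against 5.56% of 11036 genes. Cxcl14 was 27.4 against 28.0 CPM at 3 dpi, and its call was lost without 5 dpi-F (log2 0.28, adjusted p = 0.474). Without the 3 dpi heart the calls of Cxcl10 (log2 0.35, adjusted p = 0.203) and Cxcl12 (log2 0.21, adjusted p = 0.0805) were lost. Neutrophil-positive spots were deeper (medians of 6448 against 4900.5, 7811 against 5490 and 7216 against 6364 UMIs), 9 of the 10 recruited-macrophage genes (median log2 0.52) and all 4 erythroid genes were higher in them, all 12 cardiomyocyte genes were lower (median log2 -1.19), and the part of these in the chemokine results was not tested.

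**Figure D5:**
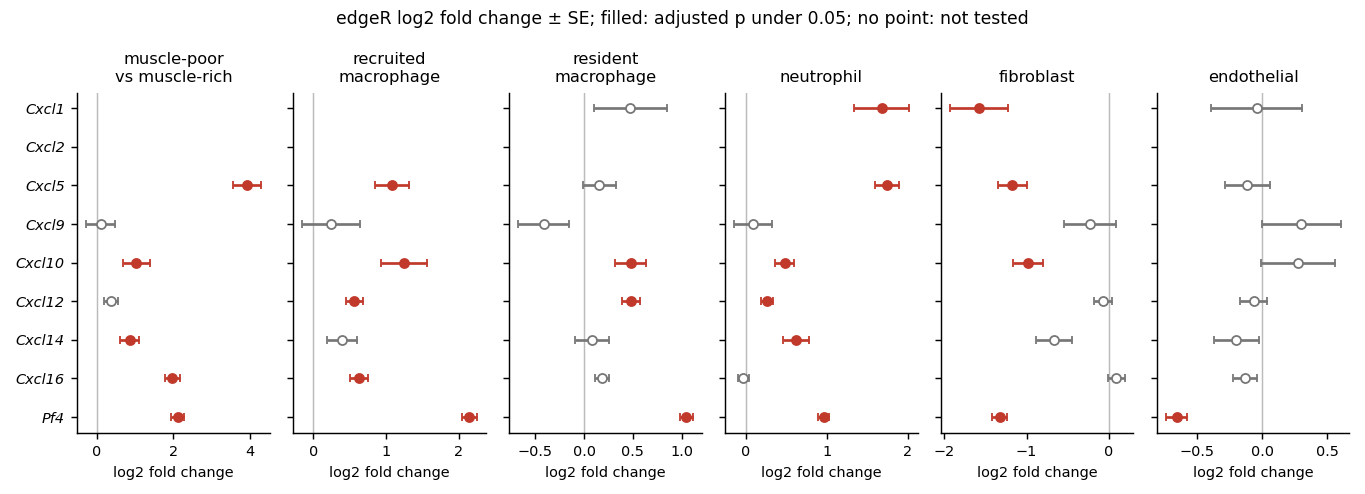
Log2 fold change of each member with its standard error from edgeR, in muscle-poor against muscle-rich spots and, within the infarct, in spots rich against poor in each marker list. Filled points passed an adjusted p of 0.05 and a missing point was not tested, and Cxcl5 in the first panel and Cxcl1 for fibroblasts and neutrophils passed the count filter through the side where they are high. Pf4 was past the threshold in all 6 panels, downward in the fibroblast and endothelial ones, and Cxcl9 in none.

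Spots rich in fibroblast genes (Pdgfra, Dcn, Lum and others) ran the other way for several members. Pf4 was 583 against 1374 CPM between fibroblast-rich and fibroblast-poor infarct spots at 3 dpi, 430 against 1089.9 in 5 dpi-F and 369 against 1071 in 5 dpi-M (log2 -1.33, SE 0.09, edgeR adjusted p = 1.85e-06). Cxcl5 was 22.3 against 51.5, 11.9 against 29.9 and 17.3 against 37.3 CPM (log2 -1.17, SE 0.17, edgeR adjusted p = 8.37e-04). Cxcl10 was lower too (log2 -0.98), and Cxcl1, which again passed the count filter through the spots where it is high, had 6 against 16, 7 against 19 and 3 against 11 UMIs. Besides Cxcl1, the lower members were 3 of 7 tested, against 3.56% of 10187 genes. Cxcl12, a chemokine often linked to stromal cells, was level at 101 against 112, 157 against 189 and 157 against 147 CPM (log2 -0.07, SE 0.11, edgeR adjusted p = 0.764), and Cxcl16 was at log2 0.10 (edgeR adjusted p = 0.631). Cxcl14 was at log2 -0.67 (edgeR adjusted p = 0.0719) and passed without the 3 dpi heart (log2 -1.02, adjusted p = 0.0121). In the same spots 7 of the 10 recruited-macrophage genes (median log2 -0.63) and all 4 erythroid genes (median log2 -1.18) were lower. So were 2 of the 4 neutrophil genes tested, S100a8 and S100a9 (median log2 -1.27 over the 4). All 12 cardiomyocyte genes were higher (median log2 1.04). The part of these lists was not tested. Within muscle-poor spots alone 5 of the 8 members tested were lower at an edgeR adjusted p under 0.05, as were 322 of 9674 genes. Among these 5, Pf4 was at log2 -1.30, Cxcl5 at -0.94 and Cxcl10 at -0.84. For this alternative the side through which members passed the count filter was not recorded, so the count is a description.

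For endothelial genes (Pecam1, Cdh5, Kdr and others), Pf4 alone of 8 members tested passed, and was lower in endothelial-rich spots (log2 -0.66, SE 0.08, edgeR adjusted p = 1.66e-04), against 0.545% of 10100 genes lower. It was 766 against 1041 CPM at 3 dpi, 568 against 961 in 5 dpi-F and 495 against 792 in 5 dpi-M. The call was lost without the last heart of these (log2 -0.63, adjusted p = 0.0546). In endothelial-rich spots 4 of the 10 recruited-macrophage genes (median log2 -0.32 over the list) and 1 of the 5 resident-macrophage genes tested were lower too. None of the 12 cardiomyocyte genes passed. The part of these lists in the Pf4 result was not tested. Cxcl10 pointed different ways in these spots, at 107 against 65.1, 29.2 against 57.7 and 50.1 against 13.7 CPM, and it passed without 5 dpi-F (log2 0.98, edgeR adjusted p = 3.58e-06). Over these marker splits, calls lost with DESeq2 were Cxcl10 for recruited macrophages, Cxcl10 and Cxcl12 for resident macrophages, Cxcl10, Cxcl12 and Cxcl14 for neutrophils and, among the values given as a description, Cxcl1 for fibroblasts.

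Of the CXC receptors, 3 of 8 had enough UMIs for the class test. Cxcr4, the signalling receptor of Cxcl12, was 5.61 CPM in the control section and 13.9, 35.7 and 21.2 CPM in the infarcted ones, and was higher in muscle-poor than in muscle-rich spots (log2 1.70, SE 0.24, edgeR adjusted p = 3.74e-06). Ackr3, which takes up Cxcl12 without G protein signalling, went the other way: it was 86.0 CPM in the control section, 40.1, 22.3 and 33.7 CPM in the infarcted ones, and lower in muscle-poor spots (log2 -2.04, SE 0.17, edgeR adjusted p = 1.81e-09). Within the infarct Ackr3 was higher in endothelial-rich spots (log2 0.97, SE 0.21, edgeR adjusted p = 0.0188). The 2 receptors of Cxcl12 thus lay on opposite sides of the muscle axis.

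Cxcr6, the receptor of Cxcl16, was 0.534 CPM in the control section and 5.25, 8.49 and 7.10 CPM in the infarcted ones, and was higher in muscle-poor than in muscle-rich spots (log2 1.29, SE 0.47, edgeR adjusted p = 0.0228). Its rise lay between muscle-rich and mixed muscle-low spots (log2 1.91, SE 0.52). From muscle-low to muscle-poor spots its change was log2 -0.62 (SE 0.36), and by CPM 1 of the 3 hearts was higher in muscle-poor spots. In recruited-macrophage-rich against poor spots Cxcr6 was 2.68 against 8.09, 1.92 against 15.6 and 3.502 against 15.7 CPM (log2 -2.43, SE 0.33). It passed the count filter there through the poor sums, so these values are a description. Cxcr2, the receptor of the neutrophil attractants, was too sparse to test, with 0, 14, 11 and 7 UMIs per section, of which 14, 8 and 7 lay in muscle-poor spots. Of its infarct UMIs, 14, 10 and 6 lay in neutrophil-positive and 0, 0 and 1 in neutrophil-free spots. Cxcr3 had 3, 15, 32 and 24 UMIs and Ackr1 0, 6, 21 and 7. Cxcr3 is the receptor of Cxcl9 and Cxcl10, and its counts were as high at 5 dpi as at 3 dpi.

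Among ligands of the family outside the 9, Ppbp (platelet basic protein, which is also cut to a neutrophil attractant) had 6, 159, 52 and 35 UMIs per section, or 1.60, 19.0, 5.45 and 4.21 CPM, and was highest at 3 dpi. Its muscle-poor UMIs were 152, 46 and 27, against 0, 0 and 5 in muscle-rich spots (log2 3.70, SE 0.79, as a description, since it passed the count filter through the muscle-poor sums). Cxcl3, another Cxcr2 ligand, had 0, 30, 4 and 12 UMIs, 29, 4 and 10 of them in muscle-poor spots. Of the genes that process or bind CXC chemokines, 6 of 8 were tested and all 6 were higher in muscle-poor spots, against 30.8% of all genes. They include the sheddases Adam10 (log2 1.08) and Adam17 (log2 1.11), which release Cxcl16 from the membrane, and Mmp9 (log2 2.55), which trims several members. Mmp9, and Il1b below, passed the count filter through the muscle-poor sums, so their place in these counts is a description. Of 16 inducers and their signalling genes 12 were tested, 9 were higher (again against 30.8% of all genes), among them Il1b (log2 2.75), Irf7 (log2 1.41) and Nfkb1 (log2 0.69), and none was lower, with a list median of log2 0.66 against 0.09 for all genes.

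The same class comparison placed the marker lists. All 10 recruited-macrophage genes, all 7 activated-fibroblast genes and the 3 of 8 neutrophil genes that passed the filter were higher in muscle-poor spots, against 30.8% of all genes. Csf3r and 1 gene of the first list passed the filter through the muscle-poor sums, so their place in these counts is a description. The resident-macrophage list was mixed (1 higher and 3 lower of 7 tested), as was the fibroblast list (4 higher and 2 lower of 8), and 4 of 8 endothelial genes were lower. The neutrophil list summed to 361, 275 and 256 CPM in muscle-poor and to 31.8, 82.3 and 25.8 CPM in muscle-rich spots.

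As a description of likeness, the Pearson correlation of log2(CPM + 10) over the 12 sums of 3 hearts and 4 classes was taken between each member with at least 200 UMIs and every gene of at least 20 CPM on average. These sums share hearts, depth and muscle content, and no p is given. Closest to Cxcl5 were Ccl7 (r = 0.98), Ccl6 and Ly6c2 (both 0.97), and closest to Pf4 were Ccl6 (0.99), Snx2 and Itgam (both 0.98). Closest to Cxcl16 were Fcrls, C1qa and Rnase4 (all 0.99), to Cxcl10 Nsfl1c (0.94), Ccl12 (0.93) and Helz2 (0.92), and to Cxcl12 Selenop (0.89), Zcchc24 (0.87) and Gpr137b (0.86). Cxcl14 stood nearest to Poldip3 (0.96), Ssbp3 (0.95) and Zmiz2 (0.94), and Cxcl9 to Psma4 (0.91), Dctpp1 and Rala (both 0.89). Pf4 and Cxcl5 shared Ccl6 among their nearest 3 genes, and no other gene was shared between members.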

How the data were processed

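Spatial libraries of 4 mouse heart sections were analysed. The matrices hold whole-number UMI counts per gene and spot, deposited by the authors, who made them with Space Ranger 1.3.1 per the file headers. The labels name build mm10 and the study's methods another annotation, and the files carry no coordinates, so none were read from them. Positions and flags of tissue came from the deposited position files (unit other), and deposited image scale factors were not used.

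Spots flagged as tissue were kept at 500 UMIs or more, 250 genes or more and at most 50% mitochondrial UMIs. Library totals were 6372017, 10724148, 11271893 and 12130474 UMIs (control, 3 dpi, 5 dpi labelled female, 5 dpi labelled male). The 13 mitochondrial genes were left out of CPM and tests. UMIs were summed per heart and spot class, since spots are not replicates, and tested with edgeR 4.0.16 (TMM, filterByExpr, quasi-likelihood F test, heart as block, Benjamini-Hochberg over all genes tested, threshold 0.05) in R 4.3.3. DESeq2 1.42.0 was an alternative, as were other class bounds, filters, no block and leaving out each heart. On simulated counts for the class comparison, with the same spread setting for every gene, 100% of the 189 tested genes changed by log2 2 were called. Of all calls made there, 4.55% were false. Changes under log2 2 and differences between hearts were not simulated. Intervals of levels are exact Poisson and those of ratios exact binomial. The members and lists were chosen with earlier results of these data known. All 9 members, the receptors, the other ligands past the filter or 20 UMIs and the 3 genes most like each member are named.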

Additional observations from a re-analysis of the deposited data

Results flagged for a closer look

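Section 5 dpi-M holds 623 spots that the position file flags as off the tissue and that entered no comparison. They nevertheless carried chemokine UMIs above the control section's level: 8.08 CPM of Cxcl1, 5.83 of Cxcl2, 33.6 of Cxcl5, 15.3 of Cxcl10, 122 of Cxcl12, 22.4 of Cxcl14, 172 of Cxcl16 and 561 of Pf4. Cxcl9 was not above the control there.

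In several comparisons the log2 ratio of CPM had 1 sign at 3 dpi and the other in both 5 dpi hearts. These differences between times were not tested, counting error was not taken into account, and several of the values are close to 0. For Cxcl9 the values at 3 dpi, in 5 dpi-F and in 5 dpi-M were -0.20, 2.004 and 1.44 in muscle-poor against mixed muscle-low spots, where the muscle-low spots of each 5 dpi heart held 2 UMIs. They were -0.35, 1.94 and 1.60 for Cxcl9 in recruited-macrophage-rich against poor spots, 0.32, -0.42 and -1.70 in fibroblast-rich against poor spots and -0.45, 1.06 and 0.88 in neutrophil-positive against neutrophil-free spots. For Cxcl10 they were 1.98, -1.07 and -0.37 in mixed muscle-low against muscle-rich spots and 0.99, -0.0078 and -0.12 in resident-macrophage-rich against poor spots. Smaller values of opposite sign were seen for Cxcl5 in resident-macrophage-rich spots (-0.085, 0.045 and 0.66), Cxcl16 in fibroblast-rich spots (-0.093, 0.0041 and 0.23), Cxcl12 in endothelial-rich spots (0.21, -0.21 and -0.053) and Cxcl14 in neutrophil-positive spots (-0.029, 1.04 and 0.92).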

How the results depend on the processing

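Of 579 log2 fold changes of members computed under alternatives, 480 kept their direction and side of the threshold, 53 lost and 14 gained significance and 32 changed direction. Without the heart as a block (no pairing of sums from 1 heart), members called numbered 3 instead of 5 in muscle-poor against muscle-rich spots, 1 instead of 2 in muscle-low against muscle-rich, 2 instead of 4 in muscle-poor against muscle-low, 1 instead of 5 for recruited macrophages, 0 instead of 3 for resident macrophages, 0 instead of 4 for fibroblasts, 0 instead of 1 for endothelial genes and 0 instead of 6 for neutrophils (Cxcl5 in the muscle-poor comparisons and Cxcl1 for fibroblasts and neutrophils included). Genes higher in the 3 class comparisons were then 2835, 1161 and 791 of 10521, and genes called in those 5 marker splits fell to 1834, 5, 0, 6 and 3 of 3176, 1048, 971, 179 and 1617, since differences between hearts entered the spread. No fit paired hearts across groups, since each heart is 1 group's own sample.

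DESeq2 called 1 member in muscle-low against muscle-rich and 2 in muscle-poor against muscle-low (1143 and 699 of 10521 genes higher), 1 for resident macrophages, 3 for fibroblasts and 3 for neutrophils, and 1631, 253, 208, 32 and 535 genes in the 5 splits in that order. With no count filter 8 members were higher in muscle-poor against muscle-rich spots, as were 3554 of 16027 genes, and 290 genes in the endothelial split. Quartile bounds called 422 instead of 2771 genes in muscle-poor against muscle-low spots. A median split in place of terciles called 553 genes for fibroblasts, and muscle-poor spots alone 321 for endothelial genes and 620 for neutrophils. The cause was not tested.

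Leaving out each heart gave 1 to 3 members called in muscle-low against muscle-rich spots, 0 to 2 for endothelial genes, and 1596 to 2259 genes in muscle-poor against muscle-low, 610 to 850 for fibroblasts, 50 to 410 for endothelial genes and 1058 to 1253 for neutrophils. Log2 changes that changed sign ranged over hearts left out from -0.87 to 1.15 (Cxcl10) and -0.16 to 0.50 (Pf4) in muscle-low against muscle-rich, -0.25 to -0.034 (Cxcl9) in muscle-poor against muscle-low and -0.10 to 1.70 (Cxcl9) for recruited macrophages. For resident macrophages they ranged from -0.040 to 0.90 (Cxcl1), -0.050 to 0.35 (Cxcl5), -0.028 to 0.71 (Cxcl10) and -0.091 to 0.52 (Cxcl14), and for fibroblasts from -0.93 to 0.12 (Cxcl9) and -0.16 to 0.012 (Cxcl12). For endothelial genes they ranged from -0.33 to 0.21 (Cxcl1), -0.28 to 0.079 (Cxcl5), -0.022 to 0.56 (Cxcl9), -0.10 to 0.98 (Cxcl10) and -0.16 to 0.029 (Cxcl12), and for neutrophils from -0.20 to 0.95 (Cxcl9).

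Other reversals, none of a called value, were Cxcl9 at -0.068 and -0.39 and Cxcl10 at -0.19 with DESeq2 (muscle-poor, then muscle-low for both genes, against muscle-rich), Pf4 at -0.0090 in muscle-low against muscle-rich with bounds from the control, Cxcl9 in muscle-poor against muscle-low at -0.00022 with no filter, -0.24 without the block and -0.084 with quartile bounds, Cxcl9 at 0.079 and Cxcl12 at 0.065 for fibroblasts and Cxcl1 at 0.14 for endothelial genes in muscle-poor spots alone, Cxcl9 at -0.23 for endothelial genes with a median split, and Cxcl9 at -0.30 for neutrophils at 2 UMIs or more. Depth limits Cxcl1, Cxcl2 and Cxcl9 most, and with 1 heart at 3 dpi and 1 control no difference between times was tested.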
